A study of Mus musculus with 48 samples.

Results

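The gene set described here holds 36 genes of the cytosolic heat shock system, of the 47480 gene symbols in the deposited tables. They were listed by name, with earlier results of these data known. The set comprises 9 members of the HSP70 and HSP110 family, 2 HSP90 genes, the HSP60 and HSP10 pair, 5 small heat shock proteins, 6 J-domain proteins, 8 cochaperones, 2 further targets of heat shock factor 1 (HSF1) and the 2 heat shock factors Hsf1 and Hsf2. All 36 were detected well enough to be tested in each comparison. Hspd1, Hspe1 and Hspa9 are listed with the set although their proteins work in mitochondria, and the collagen chaperone Serpinh1 works in the endoplasmic reticulum (ER).

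Chaperones bind unfolded stretches of other proteins and help them to fold, refold or be degraded. HSP70 proteins do so in cycles of ATP hydrolysis that J-domain proteins start and nucleotide exchange factors such as HSP110 and Bag3 reset, while HSP90 finishes the folding of kinases and steroid receptors with the help of its own cochaperones. When unfolded proteins accumulate, HSF1 is released from chaperones, forms trimers and binds promoter elements made of the letters GAA and TTC in alternating order, and skeletal muscle additionally holds small heat shock proteins that protect the contractile filaments.

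The cells were C2C12, an established mouse myoblast line that fuses into myotubes when serum is reduced, so every group came from a single line. Each stage, proliferating myoblasts and differentiated cells, was grown on collagen-coated flexible plates and either stretched cyclically in all directions of the plane during 1 h, 3 h or 6 h, or kept on the same plates without stretching for the same time. The labels name no mutation or drug in any group. They call the molecule nuclear RNA, whereas the study's methods describe extraction from whole cells. Each of the 12 groups had 4 mRNA-seq libraries, 48 in all, which by the codes in their titles came from 2 experiments per stage, except replicate 4 of the differentiated cells stretched for 1 h, which carries a code of its own. The code of replicate 9 of the myoblasts stretched for 1 h holds a digit more than that of its experiment and was taken as the same. The study's methods name 2 independent experiments with 2 separate samples each for myoblasts. For differentiated cells they name 3 experiments, with 2 samples from 1 of them and 1 from each of the others. By the codes, only the differentiated cells stretched for 1 h divide in this way. The p-values therefore measure a spread within and between few experiments. The question of each comparison was which genes differ between stretched and non-stretched cells of the same stage and time.

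Total estimated counts ranged from 48447318 to 77080730 per library. The summed level of 5 differentiated muscle markers (Myog, Ckm, Myh3, Acta1 and Tnnt1) had a median of 7.36 CPM (counts scaled to the library's total) in myoblast libraries and 10275 CPM in differentiated libraries. Adipocyte markers summed to at most 0.0479 CPM and endothelial markers to at most 0.827 CPM in any library. Leukocyte markers reached 2.09 CPM, epithelial markers 17.2 CPM (mostly Cdh1) and neural markers 316 CPM (mostly Tubb3). In bulk RNA, fewer cells of a type and less RNA per cell cannot be told apart. Throughout, CPM values were scaled with TMM factors, a gene was counted as higher or lower at an adjusted p under 0.05 (edgeR quasi-likelihood test, Benjamini-Hochberg over all genes tested), and as called where its log2 fold change was also at least 0.58 in size.

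Promoter sequence from RefSeq (build GRCm38.p6, 250 bases before to 50 bases after the start of transcription) was matched for 28 of the 36 genes. The others were Hspa8, Hspa9, Hsp90aa1, Hsp90ab1, Hspb2, Cryab, St13 and Hsf1. The letters GAANNTTC or TTCNNGAA, searched on both strands and allowed to overlap, stood in the promoters of 15 of the 28 genes (53.6%), against 17% of 27025 genes. The longer runs GAANNTTCNNGAA or TTCNNGAANNTTC stood in 5 of them, Hsph1, Hspd1, Hspe1, Dnajb6 and Chordc1 (17.9%, against 0.662% of all genes). The runs of Hspd1 and Hspe1 are the same bases read on opposite strands and count for both genes. The stretches below show how these letters lie in genes on which the later results turn, with the element letters in capitals and each sequence written 5′ to 3′ on the gene's own strand. Only bases before the start are shown, so the longer run of Hsph1, which lies after its start, is absent.
Hspa1b, chr17:34959315-34959362, minus strand: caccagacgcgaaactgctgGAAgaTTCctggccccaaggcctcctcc
Hspb1, chr5:135887782-135887849, plus strand: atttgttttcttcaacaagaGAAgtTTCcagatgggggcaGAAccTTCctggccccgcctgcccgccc
Zfand2a, chr5:139484660-139484707, minus strand: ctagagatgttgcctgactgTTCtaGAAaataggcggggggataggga
Hsph1, chr5:149636357-149636374, minus strand: aatctTTCtcGAAggctc
Hspe1, chr1:55088054-55088081, plus strand: gtccgTTCtaGAAccTTCcgGAAggccc
Dnajb6, chr5:29735847-29735869, plus strand: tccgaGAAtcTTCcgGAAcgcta

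The same 48 letters stood at chr17:34972233-34972280 before Hspa1a, the neighbouring copy of Hspa1b. The Hspa1b stretch reaches from base -124 to base -77 counted from the start of transcription and overlaps no annotated exon, as is the case for the Hspb1 and Zfand2a stretches. The Hspe1 stretch lies upstream of its own start and within the first part of the neighbouring gene Hspd1, which is transcribed in the opposite direction, where it overlaps an exon. The Hsph1 and Dnajb6 stretches overlap exons of their own genes, since these genes have more than a single annotated start. Hspe1 showed 4 alternating units in a row. The genes themselves lie at chr17:34956436-34959238 (Hspa1b), chr17:34969190-34972156 (Hspa1a), chr5:149614287-149636376 (Hsph1), chr8:83608193-83612653 (Dnajb1), chr12:110690605-110702728 (Hsp90aa1), chr1:55077835-55088243 (Hspd1) and chr5:139471211-139484549 (Zfand2a), and all are protein-coding. A match describes letters only. Dnajb1 and Serpinh1, for example, had no match in the windows searched and were higher at 6 h in both stages, whereas Dnajb6 had one and did not pass the test at 6 h in either stage.

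In non-stretched cells, the most abundant transcript per length in both stages was Hsp90ab1, the constitutive cytosolic HSP90, at 1158 CPM per kilobase of exon in myoblasts and 856 in differentiated cells. It was followed by the small heat shock protein Hspb1 (675 and 416 CPM per kilobase) and by Hspa8, the constitutive HSP70 (608 and 401). Of the 31-base words of Hspb1 and Hspa8, 52.3% and 43.5% also occur in other genes, mostly pseudogenes, so their place in this order is less certain. The stress-inducible Hspa1b stood at 40.7 and 33.1 CPM per kilobase, and its near-identical copy Hspa1a at 3.08 and 4.48. Hspb7 was the lowest member in myoblasts, at 0.0846 CPM per kilobase.

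Of the 5 small heat shock proteins, 4 were higher in differentiated cells. Over 12 non-stretched libraries per stage, Hspb7, a chaperone of heart and skeletal muscle, had 0.234 CPM ± 0.0741 (SD) in myoblasts and 48.8 ± 3.50 in differentiated cells (log2 difference 7.70, SE 0.09). Hspb2, which is also enriched in muscle, went from 4.12 ± 0.252 to 46.9 ± 2.48 CPM (3.51, SE 0.05), Hspb8, the partner of Bag3, from 73.1 ± 1.89 to 260 ± 17.9 (1.83, SE 0.04), and Cryab, the lens and muscle alpha-B crystallin, from 179 ± 8.94 to 402 ± 29.9 (1.17, SE 0.04). Hspb1 went the other way, from 696 ± 89.6 to 429 ± 29.3 CPM (-0.69, SE 0.05). The ranges of the stages did not overlap for any of these genes. All 12 differentiated libraries lay above all 12 myoblast libraries for 33.3% of all genes, and below for 28.8%.

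The J-domain proteins Dnaja4 and Dnajb2 and the HSP70 gene Hspa2 were also higher by more than 1 log2 unit in differentiated cells (1.61, 1.04 and 1.22). Lower by more than 1 log2 unit were the mitochondrial chaperonin Hspd1 (847 ± 39.0 against 217 ± 5.81 CPM, a difference of -1.96), its lid Hspe1 (-1.45) and the inducible HSP90 gene Hsp90aa1 (-1.22). In this edgeR test, 7 members were higher (19% of all genes) and 3 lower (13.3%) past that limit, all with adjusted p of at most 1.36e-26. Hspa14 (-0.99) and the HSP90 cochaperone Fkbp4 (-0.98) lay just inside it. No experiment held both stages, so stage and experiment cannot be told apart. The gene models of Hspb2 and Cryab overlap on opposite strands (chr9:50751078-50752354 and chr9:50751325-50756636, mm10). The library kit kept strand, and whether the quantification used it is not given in the sources used here.

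**Figure D1:**
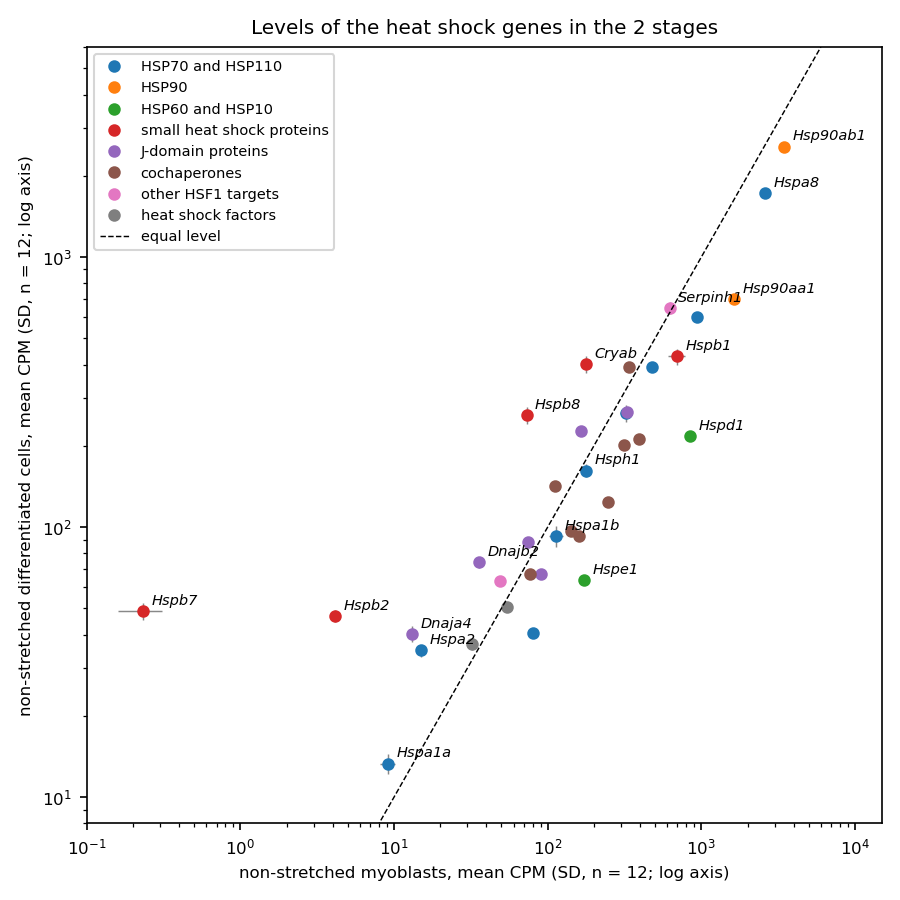
Mean CPM of the 36 genes in non-stretched myoblasts (x axis) and non-stretched differentiated cells (y axis), both on log axes, with SD over 12 libraries, coloured by class, and a dashed line of equal level. Hspb7, Hspb2, Hspb8 and Dnaja4 lie far above the line, whereas Hspd1, Hspe1 and Hsp90aa1 lie below it.

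After 1 h of stretching, the set hardly differed from non-stretched cells. In myoblasts, 0 members were called higher, against 0.254% of the 14938 genes tested, and 0 were called lower (0.997% of all genes). At any fold, 2 were higher (1.67% of all genes) and 0 lower (4.24%). DESeq2 gave 0 calls and 2 higher as well, and at an unadjusted p under 0.05, 8 were higher and 1 was lower. Here and below, the share of all genes at an unadjusted p is not given, so these counts cannot be set against it. The 2 genes higher by edgeR were Dnajb1, the J-domain partner of inducible HSP70, and Zfand2a, a zinc finger protein that links to the proteasome and is induced by arsenite.

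Dnajb1 had 88.2, 90.5, 83.8 and 87.9 CPM in the 4 non-stretched myoblast libraries and 105.0, 100.6, 96.4 and 99.9 CPM in the stretched ones (log2 fold change 0.20, SE 0.04, adjusted p = 0.0074). Zfand2a had 50.9, 51.1, 48.4 and 52.2 CPM without and 56.3, 55.8, 65.5 and 59.9 CPM with stretching (0.23, SE 0.05, adjusted p = 0.020). For both genes all stretched libraries lay above all non-stretched ones, as for 5 members in all (5.58% of all genes), and 0 lay wholly below (8.01%). Hspa1b did not pass the test, at 110 ± 12.1 and 108 ± 7.24 CPM (SD, n = 4; log2 difference -0.02).

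In differentiated cells at 1 h, no member was higher or lower at any fold (0.193% and 0.47% of all genes tested) or called (0.0901% and 0.18%) in edgeR, DESeq2 likewise gave 0, and 2 members were higher at an unadjusted p under 0.05. Dnajb1 had 63.3, 63.3, 65.9 and 64.4 CPM in non-stretched cells and 90.7, 71.1, 73.2 and 71.9 CPM in stretched cells. All stretched values were above the others, as for 2 members in all (2.49% of all genes, with 0 members and 3.9% of genes wholly below), and the highest came from replicate 4, the library with its own experiment code (log2 difference 0.26, SE 0.07, adjusted p = 0.21).

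After 3 h, Zfand2a was the leading gene in both stages, and the classical chaperones showed small differences in both directions. In myoblasts, Zfand2a was the only member called higher, against 0.459% of all genes, and 0 were called lower (1.25%) by edgeR and by DESeq2. Without a fold limit 14 members were higher (16% of all genes) and 4 were lower (15.8%). The higher count was 7 with the 24 libraries of the stage fitted together and 9 without replicate 10 of either group. Here and below, shares of all genes in such alternative fits are given only for those without stretched replicates 7 and 9 or 8 and 10. For the other fits, it cannot be seen whether all genes moved likewise. All stretched libraries lay above all others for 12 members (15.9% of all genes) and below for 3 (15.4%). The median log2 fold change of the members was 0.06, against -0.01 for all genes tested.

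Zfand2a had 47.6, 46.0, 50.003 and 47.7 CPM in non-stretched myoblasts and 72.6, 69.8, 74.8 and 74.3 CPM in myoblasts stretched for 3 h (log2 fold change 0.61, SE 0.03, adjusted p = 3.03e-07). In differentiated cells it had 62.3, 61.8, 59.9 and 61.1 CPM without and 72.9, 73.4, 75.8 and 74.1 CPM with stretching (0.27, SE 0.03, adjusted p = 0.00015). The groups were separated in both stages, and the difference of the effects passed the interaction test (-0.35, SE 0.07, adjusted p = 0.0043).

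The other members higher in myoblasts at 3 h changed by at most 0.16, the value of Hspb8, and included Hspa8 (0.13), Hspa9 (0.14), Bag3 (0.13), Hsp90aa1 (0.08) and Hsp90ab1 (0.09). Of these, Hsp90aa1 no longer passed in 9 of 15 fits with another scaling, filter or model, or with a library left out. The 4 lower members were the J-domain protein Dnajb2 (-0.19), the HSP90 cochaperone Chordc1 (-0.18), Hsf1 itself (-0.14) and Hspa2 (-0.13). Hsf2 was higher (0.12, adjusted p = 0.0089). Hspa1b, Hsph1 and Dnajb1 did not pass the test, with log2 differences of 0.09, -0.08 and -0.02.

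In differentiated cells at 3 h, 0 members were called higher or lower by either tool (0.89% and 0.741% of all genes), while 3 were higher (10.8%) and 3 lower (11.4%) at any fold. At an unadjusted p under 0.05, 6 were higher and 7 lower. Beside Zfand2a, the higher ones were the mitochondrial chaperones Hspa9 (0.20, SE 0.03) and Hspd1 (0.14, SE 0.04). The lower ones were Chordc1 (-0.23), Hsf1 (-0.17) and Dnajb2 (-0.15), which were also lower in myoblasts at this time. Hsf1 had 49.6 to 50.7 CPM in non-stretched and 43.2 to 46.0 CPM in stretched differentiated cells, without overlap. The groups did not overlap upward for 5 members (12.6% of all genes) and downward for 3 (13.4%).

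After 6 h, transcripts of most of the inducible chaperones and of most of their partners were higher in both stages. In myoblasts, 5 members were called higher, against 1.35% of all genes tested, and 0 lower (0.823%) by edgeR and DESeq2. At any fold 23 members were higher (14.1%) and 0 lower (13%). In differentiated cells, 5 were called higher (0.518%) and 0 lower (1.52%), and at any fold 25 were higher (11.5%) and 2 lower (10.8%). The members' median log2 fold change was 0.22 in myoblasts and 0.28 in differentiated cells, while that of all genes tested rounded to 0 in both. Within each experiment the median was 0.21 and 0.21 in myoblasts and 0.29 and 0.27 in differentiated cells.

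**Figure D2:**
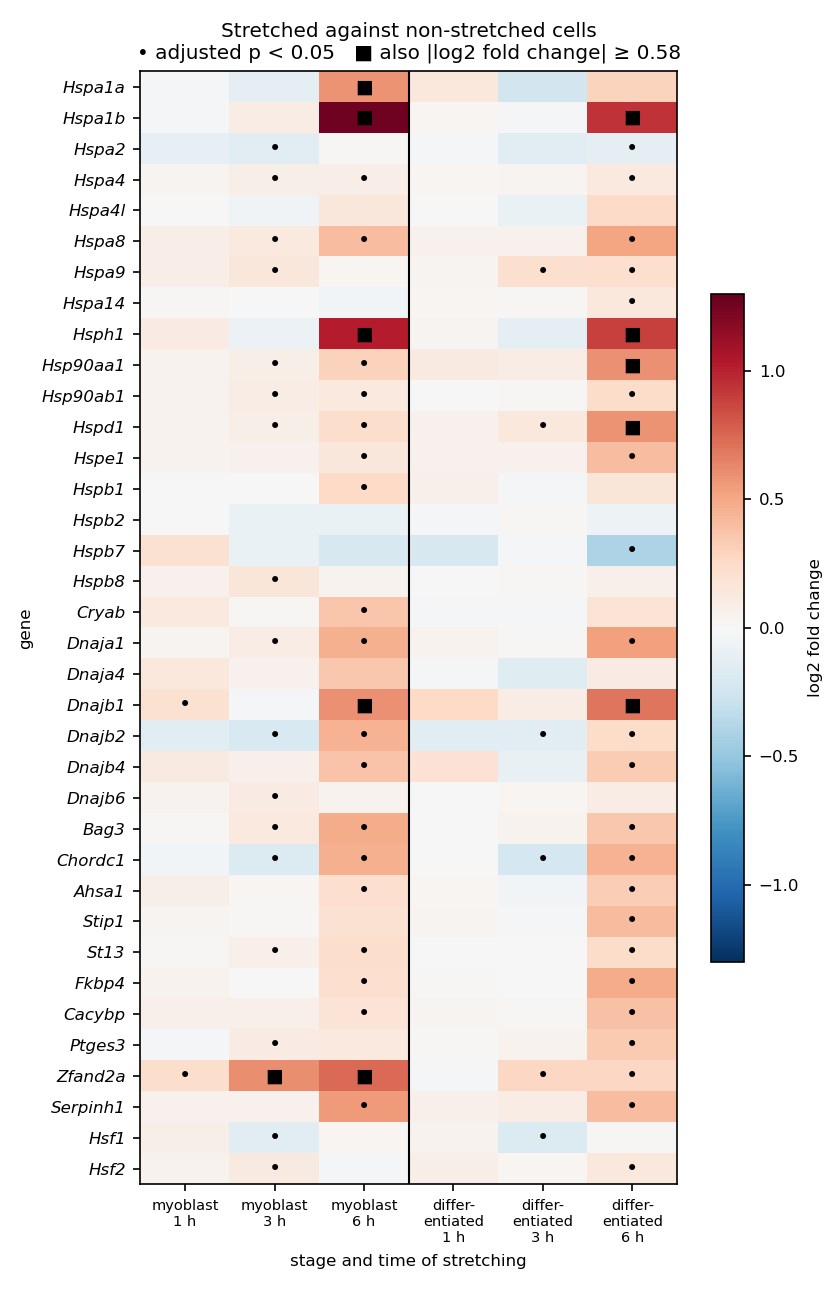
Log2 fold change of stretched over non-stretched cells (colour) for each of the 36 genes (rows) in the 6 comparisons (columns), 4 libraries against 4, with dots for an adjusted p under 0.05 and squares for calls that also reach the fold limit of 0.58. Most marks lie in the 6 h columns, where Hspa1b and Hsph1 are the darkest, and Zfand2a is marked at all 3 times in myoblasts.

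Of the HSP70 and HSP110 family, Hspa1b showed the highest fold change in each stage. Its non-stretched myoblast libraries (replicates 7, 8, 9 and 10) had 132, 136, 108 and 113 CPM at 6 h, and the stretched ones had 402, 191, 409 and 170.0 CPM. In differentiated cells the values were 98.9, 107, 87.7 and 98.9 CPM without and 258, 140, 239 and 116 CPM with stretching. Every stretched library lay above every non-stretched one, but replicates 7 and 9 were far above replicates 8 and 10 in both stages. The log2 fold change was 1.26 (SE 0.26, adjusted p = 0.0044) in myoblasts and 0.94 (SE 0.22, adjusted p = 0.012) in differentiated cells, and 1.05 and 1.25, and 0.89 and 0.84, within the single experiments.

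Hspa1a was much lower and followed the same order in myoblasts, with 8.18, 10.004, 8.23 and 8.87 CPM without and 15.04, 11.3, 15.8 and 10.5 CPM with stretching (0.58, SE 0.13, adjusted p = 0.0063). In differentiated cells its groups overlapped, at 12.9 to 14.8 and 13.1 to 19.6 CPM (0.29, SE 0.12, adjusted p = 0.11). Of the 31-base words in the exons of Hspa1a and Hspa1b, 65.4% and 68% also occur in other genes, nearly all in the other copy, so the division of reads between them is uncertain. Their sum gave 1.23 (SE 0.25, adjusted p = 0.0045) in myoblasts and 0.88 (SE 0.21, adjusted p = 0.014) in differentiated cells, an alternative chosen after seeing the data.

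Hsph1 encodes HSP110, a nucleotide exchange factor for HSP70 that shares next to no 31-base words with other genes. It had 203, 202, 189 and 191 CPM in non-stretched and 507, 273, 531 and 285 CPM in stretched myoblasts, which gave a log2 fold change of 1.03 (SE 0.19, adjusted p = 0.0029). In differentiated cells it had 169, 165, 161 and 168 CPM without and 393, 237, 374 and 220 CPM with stretching (0.89, SE 0.17, adjusted p = 0.0045). The groups were separated in both stages, and again replicates 7 and 9 stood highest.

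Hspa8, the constitutive HSP70, was higher but not called, at 2743 ± 35.6 and 3619 ± 434 CPM in myoblasts (0.40, SE 0.07) and 1704 ± 56.3 and 2431 ± 359 CPM in differentiated cells (0.51, SE 0.09; SD, n = 4). Hspa4, another HSP110 protein, was higher by 0.09 and 0.13, whereas its relative Hspa4l did not pass the test in either stage (0.15 and 0.25). Hspa9 and Hspa14 were higher in differentiated cells (0.22 and 0.14) and did not pass in myoblasts (0.03 and -0.03). Hspa2 was lower in differentiated cells by a small margin (-0.13, adjusted p = 0.034).

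Both HSP90 genes were higher in both stages. Hsp90aa1, the inducible form, had 1673, 1648, 1750 and 1695 CPM without and 2331, 1773, 2371 and 1831 CPM with stretching in myoblasts, where it was not called (0.30, SE 0.08, adjusted p = 0.023). In differentiated cells it had 721, 692, 654 and 680.0 CPM without and 1222, 895, 1154 and 867 CPM with stretching and was called (0.59, SE 0.10, adjusted p = 0.0032). The test of the difference between stages did not pass for this gene. Hsp90ab1 was higher by 0.13 and 0.24.

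Hspd1, the HSP60 chaperonin, had 214, 210, 224 and 208 CPM in non-stretched and 354, 287, 354 and 287 CPM in stretched differentiated cells (0.58, SE 0.07, adjusted p = 0.00087). In myoblasts its change was 0.23 (SE 0.04). Its lid Hspe1 was higher by 0.40 in differentiated cells and 0.15 in myoblasts. Of the 31-base words of Hspd1 and Hsp90aa1, 50.1% and 51.4% also occur in other annotated genes, mostly pseudogenes, which makes their absolute level less certain than that of Hsph1.

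Among J-domain proteins, Dnajb1 was called in both stages. It had 98.8, 95.5, 97.2 and 97.6 CPM without and 169.8, 120.3, 179 and 119 CPM with stretching in myoblasts (0.59, SE 0.12, adjusted p = 0.0040). In differentiated cells it had 64.9, 68.6, 69.2 and 64.5 CPM without and 135, 97.6, 119 and 81.7 CPM with stretching (0.70, SE 0.12, adjusted p = 0.0038). Its groups were separated in each stage. Dnaja1, Dnajb2 and Dnajb4 were higher in both stages by 0.24 to 0.53, and Dnaja4 and Dnajb6 in neither.

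All 8 cochaperones were higher in differentiated cells and 6 of them in myoblasts, and none was called. In myoblasts, Ahsa1, Fkbp4 and Cacybp each no longer passed in 6 of 15 fits with another scaling, filter, model or set of libraries. Bag3, which couples HSP70 to autophagy and maintains muscle filaments, had 112 ± 3.44 and 157 ± 27.5 CPM in myoblasts (0.48, SE 0.10) and 142 ± 4.16 and 182 ± 24.5 CPM in differentiated cells (0.35, SE 0.08; SD, n = 4). Chordc1, which binds HSP90 and was lower at 3 h, was higher at 6 h in both stages (0.46 and 0.45). The HSP90 cochaperones Stip1 and Ptges3 passed in differentiated cells (0.41 and 0.34) and not in myoblasts (0.20 and 0.12, adjusted p = 0.051 and 0.054).

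The small heat shock proteins did not move as a class. Hspb1 was higher in myoblasts (636 ± 36.7 and 760 ± 90.7 CPM, 0.26, SE 0.07), although its groups overlapped, and did not pass in differentiated cells (0.15, adjusted p = 0.13). Cryab was higher in myoblasts (0.37) and did not pass in differentiated cells (0.18, adjusted p = 0.054). Hspb7 was lower in differentiated cells, with 44.4, 46.8, 54.2 and 51.8 CPM without and 37.4, 38.1, 36.8 and 36.6 CPM with stretching (-0.41, SE 0.06, adjusted p = 0.0014). All stretched libraries lay below all non-stretched ones, and replicates 7 and 9 did not stand apart. Hspb2 and Hspb8 passed in neither stage.

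Of the further HSF1 targets, Zfand2a was also higher in myoblasts at 6 h (0.74, SE 0.05, adjusted p = 1.35e-05). It had 48.7, 49.5, 53.5 and 54.3 CPM without and 81.5, 80.5, 93.0 and 88.1 CPM with stretching. It was higher by 0.27 in differentiated cells (SE 0.04). In myoblasts, its effect at 6 h minus that at 3 h was 0.13 (SE 0.07) and did not pass the interaction test (adjusted p = 0.18). Serpinh1, the collagen chaperone, was higher by 0.55 and 0.40. Hsf1 passed in neither stage (0.03 and 0.02), and Hsf2 was higher in differentiated cells only by the test (0.13, adjusted p = 0.046), with no difference between the stages passing its own test. Hsf2 no longer passed in 11 of 15 fits with another scaling, filter or model, or with a library left out.

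In total 20 members were higher at any fold in both stages at 6 h, and 3 were called in both (Hspa1b, Hsph1 and Dnajb1), against 6.33% and 0.147% of the 14273 genes tested in both stages. All stretched libraries lay above all non-stretched ones for 24 members in myoblasts (15% of all genes) and 27 in differentiated cells (13.8%), and below for 0 (14.4%) and 2 (12.3%). Some members that passed at 6 h no longer did so in part of 15 fits with another scaling, filter, model or set of libraries. In myoblasts these were Hspa4, Hsp90aa1, Hspe1, Hspb1, Ahsa1, Fkbp4 and Cacybp, in 4 to 6 fits each. In differentiated cells they were Hspa2, Hspa4 and Hsf2, in 7 to 11 fits. The calls depended on the fold limit and on the libraries: a test against the limit itself (glmTreat) called 0 members in either stage. Leaving out stretched replicate 7 or 9 gave 3 calls in myoblasts, and leaving out stretched replicate 7 gave 2 in differentiated cells.

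**Figure D3:**
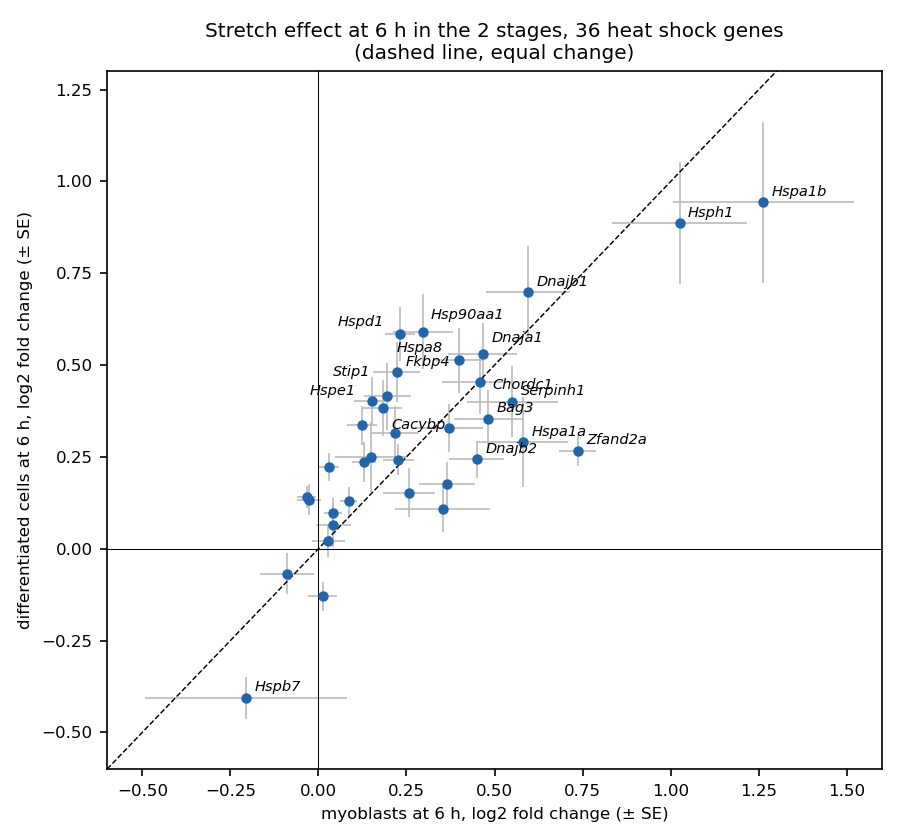
Log2 fold change at 6 h in myoblasts (x axis) and in differentiated cells (y axis), each with its SE, for the 36 genes, with a dashed line of equal change. Most genes lie above 0 on both axes, Zfand2a lies furthest below the dashed line, and Hspd1 and Hsp90aa1 lie above it.

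The single libraries at 6 h split in the same way in both stages. By their title codes, replicates 7 and 8 came from the same experiment and 9 and 10 from another. Within each code the odd-numbered stretched library was higher. Against the mean of the non-stretched libraries, the median log2 difference over the members was 0.32, 0.07, 0.37 and 0.07 in stretched myoblast replicates 7, 8, 9 and 10, and 0.42, 0.20, 0.39 and 0.14 in differentiated cells. Both replicates 7 and 9 lay above both 8 and 10 for 28 of 36 members in each stage, against 21.8% and 18.4% of all genes. In non-stretched cells at 6 h this was so for 2 and 5 members (16.9% and 12.6% of all genes), and the reverse for 8 and 4 (16.7% and 12%). In stretched cells at 3 h the order was the reverse, with both 7 and 9 below both 8 and 10, for 11 members in myoblasts (17.3% of all genes) and 17 in differentiated cells (15.5%). These libraries were singled out after their values were seen, so no test was made of them.

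**Figure D4:**
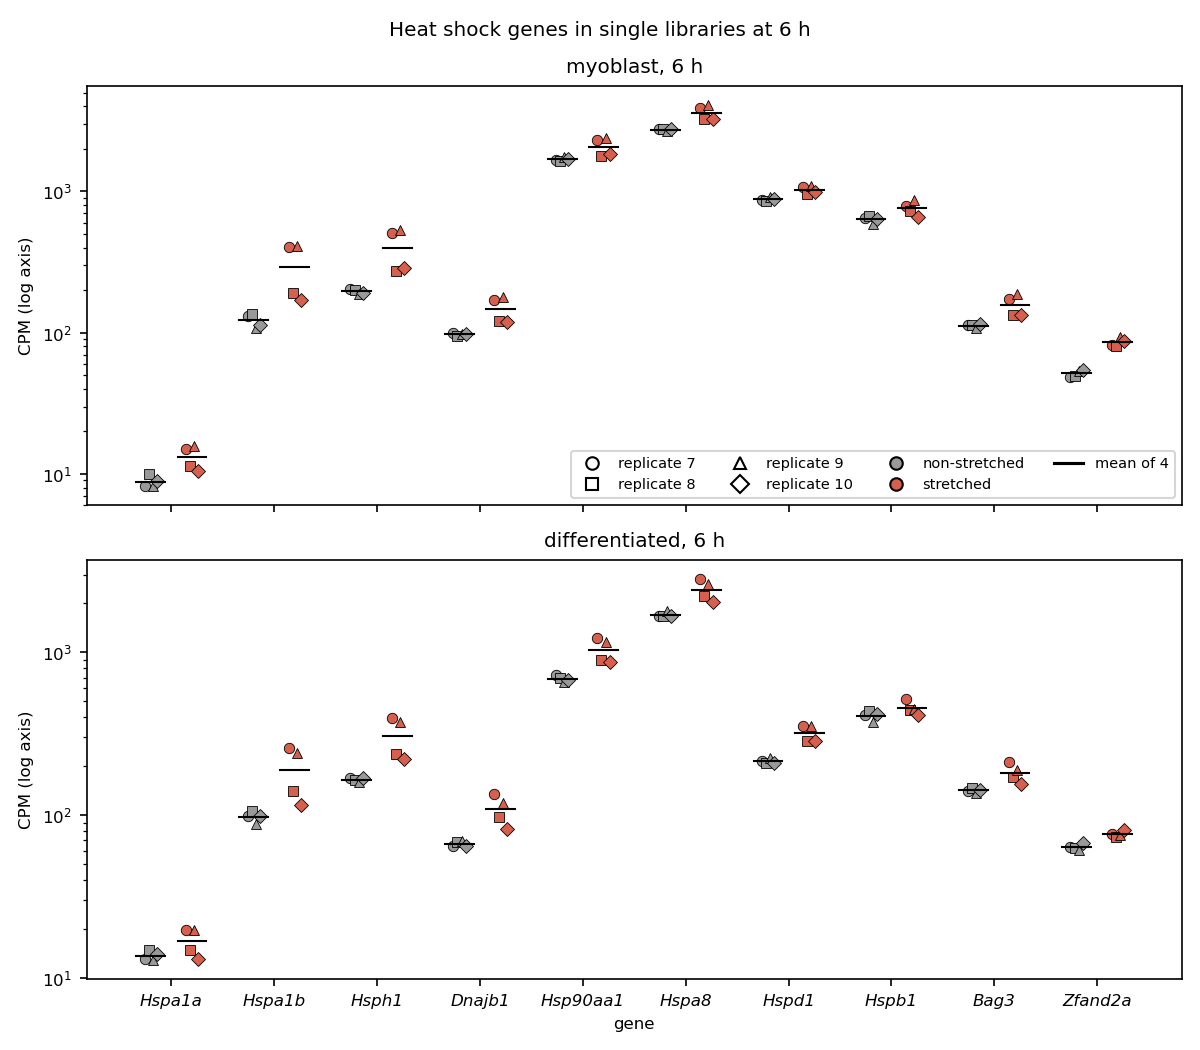
CPM (log axis) of 10 heat shock genes in each library at 6 h, with grey symbols for non-stretched and red symbols for stretched cells, a symbol shape for each replicate number and a bar at the mean of 4, for myoblasts (top) and differentiated cells (bottom). The circles and triangles of stretched replicates 7 and 9 stand above the squares and diamonds of replicates 8 and 10 for all genes shown except Zfand2a.

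Members that did not follow this split in either stage were Zfand2a, Hspa9, Hspa14, Hspa2, Hspb2 and Dnajb6. Zfand2a had 81.5, 80.5, 93.0 and 88.1 CPM in stretched myoblasts and 76.7, 73.0, 75.8 and 81.0 CPM in stretched differentiated cells. Hspa9 in differentiated cells had 688, 681, 687 and 691 CPM with and 561 to 622 CPM without stretching. In all 3 groups every stretched library lay above every non-stretched one.

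Without stretched replicates 7 and 9, 1 member (Zfand2a) was called in myoblasts and 0 in differentiated cells, but 15 and 18 were still higher at any fold, with 8.65% and 3.91% of all genes higher. They included Hspa1b, Hsph1, Dnajb1, Hspa8, Dnaja1 and Chordc1 in both stages. Without replicates 8 and 10 instead, 11 were called (2.06% and 0.655% of all genes) and 27 higher (15.8% and 7.64%) in each stage. These fits rest on 2 stretched libraries against 4.

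The ER chaperones of another list split in the same way. Their mean log2 difference in stretched replicates 7, 8, 9 and 10 was 0.95, 0.33, 1.01 and 0.38 in myoblasts and 0.57, 0.20, 0.63 and 0.15 in differentiated cells, and replicates 7 and 9 were above 8 and 10 for all 15 of these genes in both stages. For the cold-inducible RNA-binding proteins Cirbp and Rbm3, the mean was -0.44, -0.04, -0.44 and -0.07 in myoblasts and -0.22, -0.02, -0.29 and 0.03 in differentiated cells. At 3 h the same 2 genes were both higher in each stage, by a median of 0.30 and 0.29. The part of these differences in the results on the 36 genes was not tested.

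**Figure D5:**
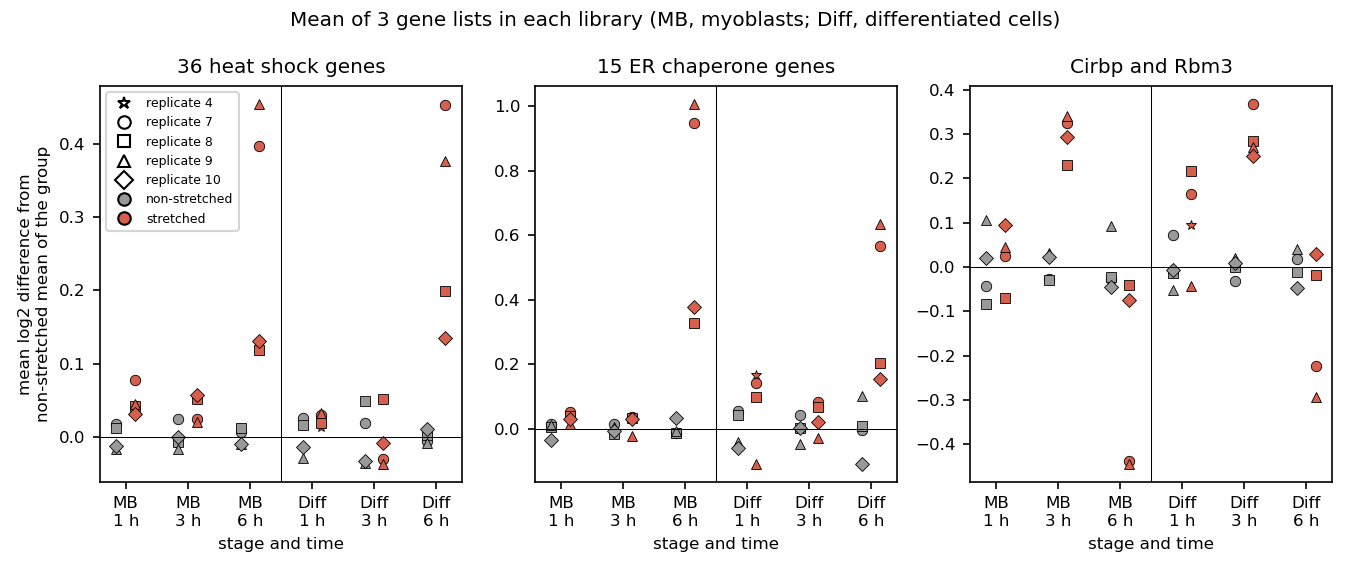
Mean log2 difference of each library from the non-stretched mean of its stage and time, for the 36 heat shock genes (left), 15 ER chaperone genes (middle) and Cirbp with Rbm3 (right), with grey for non-stretched and red for stretched libraries and a symbol for each replicate. At 6 h stretched replicates 7 and 9 stand apart from 8 and 10 in all panels, upward for the chaperones and downward for Cirbp and Rbm3.

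The stretch effect at 6 h was compared directly with that at earlier times in an interaction test, each time having its own non-stretched cells. In myoblasts the effect was higher at 6 h than at 1 h for 14 members (11.6% of all genes) and than at 3 h for 16 (14.3%), and in differentiated cells for 21 (6.73%) and 21 (6.95%). It was lower at 6 h than at 1 h for 0 members in either stage (9.42% and 5.13% of all genes), and than at 3 h for 2 in myoblasts (12.2%) and 0 in differentiated cells (5.05%). At an unadjusted p under 0.05 these lower counts were 0, 0, 3 and 1, and DESeq2 gave 0, 0, 2 and 1. Hsph1 differed between 6 h and 3 h by 1.11 (SE 0.19, adjusted p = 0.00014) in myoblasts and 1.01 (SE 0.17, adjusted p = 0.00061) in differentiated cells. Hspa1b differed by 1.18 (SE 0.26) and 0.96 (SE 0.22). Hspa9 and Hsf2 had a lower effect at 6 h than at 3 h in myoblasts (-0.11 and -0.14). Between 3 h and 1 h, 1 member was higher and 1 lower in myoblasts (5.37% and 5.54% of all genes), and 2 were higher and 1 lower in differentiated cells (2.72% and 2.43%). Zfand2a was higher and Hsf1 lower in both stages (0.37 and -0.21 in myoblasts, 0.29 and -0.23 in differentiated cells), and Hspa9 was higher in differentiated cells (0.16).

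In the non-stretched cells alone, 0 members were higher or lower at 6 h than at 1 h in either stage by edgeR and by DESeq2, against 1.03% and 0.848% of all genes in myoblasts and 0.00615% in each direction in differentiated cells. With the fold limit the shares of all genes were 0.0191% and 0.14% in myoblasts and 0% in differentiated cells. At an unadjusted p under 0.05, 2 members were higher and 1 lower in myoblasts, and 0 higher and 1 lower in differentiated cells. An absent call does not show equal levels.

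The effects of stretching differed between the stages for few members. At 6 h the effect was higher in differentiated cells for 6 members (3.83% of all genes), which were the mitochondrial chaperones Hspd1 (0.37, SE 0.09, adjusted p = 0.0076), Hspe1 (0.27) and Hspa9 (0.21), the HSP90 cochaperones Fkbp4 (0.28) and Ptges3 (0.23), and Hspa14 (0.19). It was lower for 1 member (2.15% of all genes), Zfand2a (-0.45, SE 0.07, adjusted p = 6.75e-05). The 6 members other than Zfand2a were all lower in non-stretched differentiated cells than in myoblasts, by -0.65 to -1.96. So were 20 of the 36 members at an adjusted p under 0.05 and any fold, a rule for which the share of all genes is not given here. By another rule, with all 12 differentiated libraries below all 12 myoblast libraries, the share of all genes was 28.8%, which cannot be set against that count. The part of these levels in the effects was not tested. Without the filter on low counts, 2 members in place of 6 had a higher effect at 6 h. At 1 h no member passed this test in edgeR or DESeq2, and at an unadjusted p under 0.05 there were 0 higher and 1 lower.

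Other chaperone lists at 6 h are given for scale. Of all genes tested, 14.1% were higher and 13% lower in myoblasts, and 11.5% and 10.8% in differentiated cells. Called higher were 1.35% of all genes in myoblasts and 0.518% in differentiated cells. Of 15 ER chaperones, 14 were higher in each stage and 8 and 2 were called, led by Sdf2l1 (1.43 and 0.78) and Hspa5, the ER form of HSP70 (1.14 and 0.68). Of 14 subunits of the chaperonin TRiC and prefoldin, 0 were higher and 1 lower in myoblasts, and 5 were higher and 0 lower in differentiated cells. Other cytosolic chaperones and cochaperones outside the set gave 3 higher and 3 lower of 32 tested in myoblasts and 5 higher and 2 lower of 34 in differentiated cells. Of 8 mitochondrial proteostasis genes, 1 was higher in myoblasts and 0 in differentiated cells. Cirbp was lower in myoblasts (-0.34, adjusted p = 0.049).

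Some cell type markers, named after their values were seen, moved at 6 h beside these genes. The myogenic factor Myf5 was higher in both stages (0.40 and 0.51), as was Tubb3, a tubulin listed among the neural markers (0.56 and 0.82). Pax7, Myog and Des were lower in myoblasts (-0.23, -0.54 and -0.11) and the epithelial marker Cdh1 in differentiated cells (-0.33). Kdr, an endothelial marker, went from 0.208 to 0.499 CPM in myoblasts, and Myog was also low there, at 0.841 CPM without and 0.577 CPM with stretching. Some of these markers had moved before 6 h. At 3 h, Tubb3 was higher in differentiated cells (0.53, adjusted p = 0.00082) and Myog was lower in myoblasts (-0.82, adjusted p = 0.017). The summed neural list ranged from 189 to 316 CPM over all myoblast libraries and from 39.8 to 84.5 CPM over all differentiated libraries. The part of these markers in the results above was not tested.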

How the data were processed

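The mRNA libraries were made with a stranded kit. Per the labels and the study's methods, the authors aligned the read pairs to mm10 with STAR and deposited gene-level estimated counts from Salmon for each stage. The estimated counts are whole numbers, not scaled by depth, and were used as deposited. Genes with low counts were removed (filterByExpr) and TMM factors computed. For each stage and time, edgeR's quasi-likelihood test set the stretched libraries against the others (R 4.3.3, edgeR 4.0.16, limma 3.58.1), with Benjamini-Hochberg adjustment over all genes tested. Interactions were tested with all libraries of a stage, or of both stages, in the model. DESeq2 1.42.0 was an alternative, as were RLE scaling, no filter, glmTreat, experiment or replicate number as a term, and leaving out each library. The pipeline was tested on simulated data.

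Members and lists were chosen with earlier results of these data known. Values are given in full for members called in any comparison, for Hspa1a, Hspa1b, Hsph1, Dnajb1, Hspb1, Bag3, Hsp90aa1 and Hspa8, and for the 3 members with the largest fold change past the test in each comparison. Of the other lists, at most 2 called genes are named per comparison. Shared sequence was measured as 31-base words of the exons found in other genes. With 48447318 to 77080730 counts per library, the counting error was small for abundant members, but for Hspb7 in myoblasts, with a mean of 13 to 14.9 counts, it was not.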

Additional observations from a re-analysis of the deposited data

Results flagged for a closer look

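In groups of 4 libraries, 5 of 120 combinations of a gene and a group held a library far from the others by Dixon's criterion, and chance gives about 1 in 20. They were Hsp90aa1 in myoblasts stretched for 1 h (replicate 10, 1740 CPM, the others 1730), Dnajb1 and Hspd1 in differentiated cells stretched for 1 h (replicate 4, 90.7 CPM against 71.1 to 73.2, and 273 CPM against 203 to 213), Hspb1 in differentiated cells not stretched for 1 h (replicate 9, 407 CPM against 446 to 449), and Hspa8 in differentiated cells not stretched for 6 h (replicate 9, 1790 CPM against 1670 to 1680). Replicate 4 is the library with an experiment code of its own.

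The effect of stretching differed between times by an interaction test. From 3 h to 6 h it was higher for 16 members and lower for 2 in myoblasts, and higher for 21 in differentiated cells. From 1 h to 6 h it was higher for 14 and 21 members. From 1 h to 3 h it was higher for 1 and lower for 1 in myoblasts, and higher for 2 and lower for 1 in differentiated cells. The effect differed between the stages, as differentiated cells minus myoblasts, for Zfand2a at 3 h (-0.35) and 6 h (-0.45), and at 6 h for Hspd1 (0.37), Fkbp4 (0.28), Hspe1 (0.27), Ptges3 (0.23), Hspa9 (0.21) and Hspa14 (0.19).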

How the results depend on the processing

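Over 76 gene results, 1024 of 1140 values under another scaling, filter, model or with a library left out kept their direction and side of the threshold, 116 no longer passed and 0 reversed. Of the 50 results at 6 h, 40 passed under all of these, and 33 passed also in the fits chosen after seeing the data. With no fold limit, members called were 2 higher in myoblasts at 1 h, 14 higher and 4 lower at 3 h and 23 higher at 6 h, and in differentiated cells 3 higher and 3 lower at 3 h and 25 higher and 2 lower at 6 h. The test against the limit itself (glmTreat) called 0 in myoblasts at 3 h and in both stages at 6 h. The cause of the differences below was not tested. With the 24 libraries of a stage fitted together, 1 and 7 members were higher in myoblasts at 1 h and 3 h, and 1 was lower in differentiated cells at 6 h. With experiment as a covariate, 1 was higher in differentiated cells at 1 h, and 5 higher and 5 lower at 3 h. DESeq2 gave 5 higher there, and 1 lower effect from 3 h to 6 h. Without a filter on low counts, 1 member was lower in differentiated cells at 6 h, the effect in myoblasts was lower for 0 from 1 h to 3 h and for 1 from 3 h to 6 h, that in differentiated cells higher for 1 from 1 h to 3 h (also with RLE scaling), and 2 effects were higher in differentiated cells than in myoblasts at 6 h.

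To see whether replicate numbers pair the samples, each gene's log2 CPM was taken as its deviation from the mean of its group. These deviations, not the levels, correlated by -0.045 to 0.152 between stretched and non-stretched samples with the same replicate number. Not every sample correlated best with its own number, so the numbers were not taken to pair the samples. With the replicate block, 3 members were called higher at 6 h in each stage, 5 were higher and 5 lower in differentiated cells at 3 h, and the effect in these cells was lower for 1 member from 1 h and from 3 h to 6 h.

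Without stretched replicates 7 and 9, chosen after seeing the data, 1 member was called higher in myoblasts and 0 in differentiated cells at 6 h, 15 and 18 were higher and 0 and 1 lower at any fold, and the median was 0.074 and 0.182. Without 8 and 10, 11 and 11 were called, 27 and 27 higher, 0 and 1 lower, and the median was 0.343 and 0.427. Leaving out each library in turn gave 3 to 6 calls in myoblasts (3 without stretched 7 or 9) and 2 to 7 in differentiated cells (2 without stretched 7) at 6 h. At any fold it gave 16 to 26 and 23 to 26 higher, and 1 to 2 lower in differentiated cells. At 3 h it gave 9 to 16 higher (9 without replicate 10 of either group) and 3 to 5 lower in myoblasts, and 2 to 3 higher and 3 to 5 lower in differentiated cells (5 without stretched 8). At 1 h it gave 1 to 3 higher in myoblasts. The medians ranged from 0.17 to 0.26 and from 0.24 to 0.34 at 6 h. Without replicate 4 of the differentiated cells stretched for 1 h, the effect was lower for 1 member from 1 h and from 3 h to 6 h. Non-stretched differentiated cells were lower than myoblasts for 4 to 5 members when a library was left out (5 without myoblast 6 h stretched replicate 9).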
